A study of Mus musculus with 6 samples.

Results

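The genes described here are 33 genes of microglia and macrophages, taken as a named list out of 32285 genes counted in single-cell RNA-seq libraries of mouse striatum. All 33 were in the count table. Their levels were read in the cluster that the authors named MIC_16, which held 184 of the 14373 annotated cells, and in the other annotated cell types. All mice were wild-type C57BL/6 males. Of the 6 libraries, 3 came from postnatal day 3 (P3) and 3 from animals 3 months old (3m), and each preparation pooled several animals. The suspensions had been enriched for astrocytes by a magnetic sort on ACSA2, which astrocytes carry on their surface, after Fc receptors had been blocked. MIC_16 cells are thus the microglia and macrophages that came through an astrocyte enrichment, and not a sample of all of them. Nothing in the labels says that libraries shared a litter or a preparation day, and p-values measure the spread between these pooled preparations.

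MIC_16 held 34, 44 and 46 cells in P3 replicates 1 to 3, with 280861, 329377 and 289712 UMIs (unique molecular identifiers, each standing for 1 captured transcript). At 3m it held 20, 23 and 17 cells with 101265, 100740 and 53392 UMIs, so that low genes were measured less precisely at 3m. It was 1.96 ± 0.471% of cells at 3m and 1.16 ± 0.224% at P3 (mean ± SD, n = 3 each; p = 0.1, exact permutation test, two-sided, the smallest p that 3 against 3 libraries allow). With only cells of over 1000 genes and under 5% mitochondrial UMIs kept, the difference grew from 0.797 to 5.88 percentage points, and 3m replicate 1 then stood at 15.9% while the other 3m libraries were at 2.50 and 2.46%. The median MIC_16 cell had 4172 ± 801 UMIs at 3m and 6005 ± 594 at P3 (p = 0.1 by two-sided exact permutation), with every 3m library below every P3 library. Levels are given as CPM, that is, UMIs per 1000000 UMIs of the same library's MIC_16 cells. The label held against markers, since all 11 microglial markers were detected and together made up 24763 to 30543 CPM at P3 and 41602 to 53229 CPM at 3m. Markers of other cells were lower but not absent. The 7 astroglial markers summed to 401 to 4123 CPM at P3 and 112 to 751 CPM at 3m, and the 6 oligodendrocyte markers to 24.9 to 86.3 CPM at P3 and 169 to 2400 CPM at 3m. The endothelial, mural, neuronal, oligodendrocyte precursor and haemoglobin lists each stayed at or below 138 CPM in every library, and *Flt1*, *Acta2*, *Des*, *Cspg4*, *Gpr17*, *Tubb3*, *Hba-a1* and *Hba-a2* were at 0. No MIC_16 cell had a barcode that occurred in another library, although 37 barcodes of the series did.

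Microglia are the resident macrophages of the brain parenchyma. They enter the embryonic brain from the yolk sac, depend on signalling through the receptor CSF1R, and clear dying cells and synapses. Perivascular and meningeal macrophages, the border-associated macrophages, are their neighbours around vessels and in the meninges and share many of their genes. In the first postnatal week many microglia are amoeboid, divide and carry lipid-handling and phagocytic genes. With maturation they become ramified and take up a homeostatic programme, a set of surface receptors and secreted proteins that includes P2RY12 and TMEM119. The transcription factor PU.1, encoded by *Spi1*, drives the myeloid lineage and binds DNA motifs with a GAGGAA core.

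The stretches upstream of 6 members are shown because later results turn on these genes and because members of both kinds, microglial and border macrophage, hold the PU.1 core. Each is the 250 bases just before the transcription start, 5′ to 3′ on the gene's own strand, from RefSeq on GRCm38.p6. Capitals mark GAGGAA and the longer GAGGAAG on either strand, the second of which contains the first. *C1qb* (chr4:136886201-136886450, minus strand) encodes a chain of complement C1q. *Ctss* (chr3:95526536-95526785, plus strand) encodes the lysosomal protease cathepsin S. *P2ry12* (chr3:59262986-59263235, minus strand) and *P2ry13* (chr3:59210883-59211132, minus strand) encode neighbouring purinergic receptors. *Mrc1* (chr2:14229164-14229413, plus strand) encodes the mannose receptor CD206, and *Pf4* (chr5:90772185-90772434, plus strand) the chemokine platelet factor 4.
C1qb: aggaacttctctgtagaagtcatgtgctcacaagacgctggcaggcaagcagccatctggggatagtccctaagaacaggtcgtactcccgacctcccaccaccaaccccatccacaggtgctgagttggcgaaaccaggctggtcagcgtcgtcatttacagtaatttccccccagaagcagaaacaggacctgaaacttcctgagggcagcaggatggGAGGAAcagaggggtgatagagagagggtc
Ctss: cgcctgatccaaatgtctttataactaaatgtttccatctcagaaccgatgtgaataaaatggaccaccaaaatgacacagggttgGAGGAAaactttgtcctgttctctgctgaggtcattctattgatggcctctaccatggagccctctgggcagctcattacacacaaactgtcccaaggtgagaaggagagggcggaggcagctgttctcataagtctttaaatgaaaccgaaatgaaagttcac
P2ry12: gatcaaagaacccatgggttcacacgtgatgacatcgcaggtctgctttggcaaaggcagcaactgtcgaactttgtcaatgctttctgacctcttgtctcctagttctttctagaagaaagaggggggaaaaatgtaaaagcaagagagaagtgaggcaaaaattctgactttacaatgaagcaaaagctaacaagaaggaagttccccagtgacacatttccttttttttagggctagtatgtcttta
P2ry13: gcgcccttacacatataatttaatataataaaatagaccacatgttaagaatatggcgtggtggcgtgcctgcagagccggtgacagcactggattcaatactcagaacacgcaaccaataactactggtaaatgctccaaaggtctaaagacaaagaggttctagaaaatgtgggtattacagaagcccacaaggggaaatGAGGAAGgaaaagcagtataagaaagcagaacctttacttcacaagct
Mrc1: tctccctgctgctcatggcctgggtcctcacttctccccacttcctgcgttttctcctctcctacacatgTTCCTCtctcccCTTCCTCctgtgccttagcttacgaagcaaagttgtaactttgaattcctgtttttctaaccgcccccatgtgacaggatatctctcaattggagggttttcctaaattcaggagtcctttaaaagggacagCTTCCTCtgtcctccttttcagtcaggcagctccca
Pf4: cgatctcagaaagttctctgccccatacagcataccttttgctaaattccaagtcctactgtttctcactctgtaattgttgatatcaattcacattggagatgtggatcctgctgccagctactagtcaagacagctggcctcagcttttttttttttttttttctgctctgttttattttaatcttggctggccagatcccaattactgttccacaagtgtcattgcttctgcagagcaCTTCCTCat
Matching start sites were at hand for 24 of the 33 members. These 24 genes had 27 promoter stretches. GAGGAA or its reverse complement TTCCTC lay in 13 of the 27, each of a different gene, and in 23.3% of all 32851 stretches of the same length. GAGGAAG or CTTCCTC lay in 8 of the 27 and in 10.6% of all. *Mrc1* had 3 matches, *C1qb*, *Ctss*, *P2ry13* and *Pf4* had 1 each, and *P2ry12* had none. A match describes letters in this window and not bound factor.

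In MIC_16 the members as a group were higher at 3m than at P3. Of the 33, 29 passed the filter on low counts and were tested, and *Cst7*, *Spp1*, *Lgals3* and *Gpnmb* were not. Calls come from edgeR's quasi-likelihood test and needed both a change of 1 or more on the log2 scale, up or down, and an adjusted p no higher than 0.05. On this rule 15 members rose, against 6.68% of all 2679 genes tested, and 1 member fell, against 3.43%. Among the 15, *Mrc1* and *Pf4* passed the filter through 3m, where they are high. The 1 that fell, *Lpl*, passed it only through P3. The filter thus favoured the direction of these calls. The remaining 13 were not called. The median log2(fold change) of the 29 members was 1.04, and that of all tested genes was -0.02. In 17 of the 29, all 3m libraries lay above all P3 libraries in CPM, as did 13.9% of all genes tested, and in 1 all 3m libraries lay below, as did 19.6%. Scaling by library totals alone moved the median of all genes to -0.15 and the share of calls that were higher from 66.1 to 52.0%, and left 13 members called higher. Without 3m replicate 1 only 7 members were called higher. *Cd14*, *Tmem119*, *Olfml3*, *Selplg*, *Mrc1* and *Pf4*, with *Lyz2*, were those 7, and they and *Lpl* also kept their calls when any other single library was left out.

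**Figure D1:**
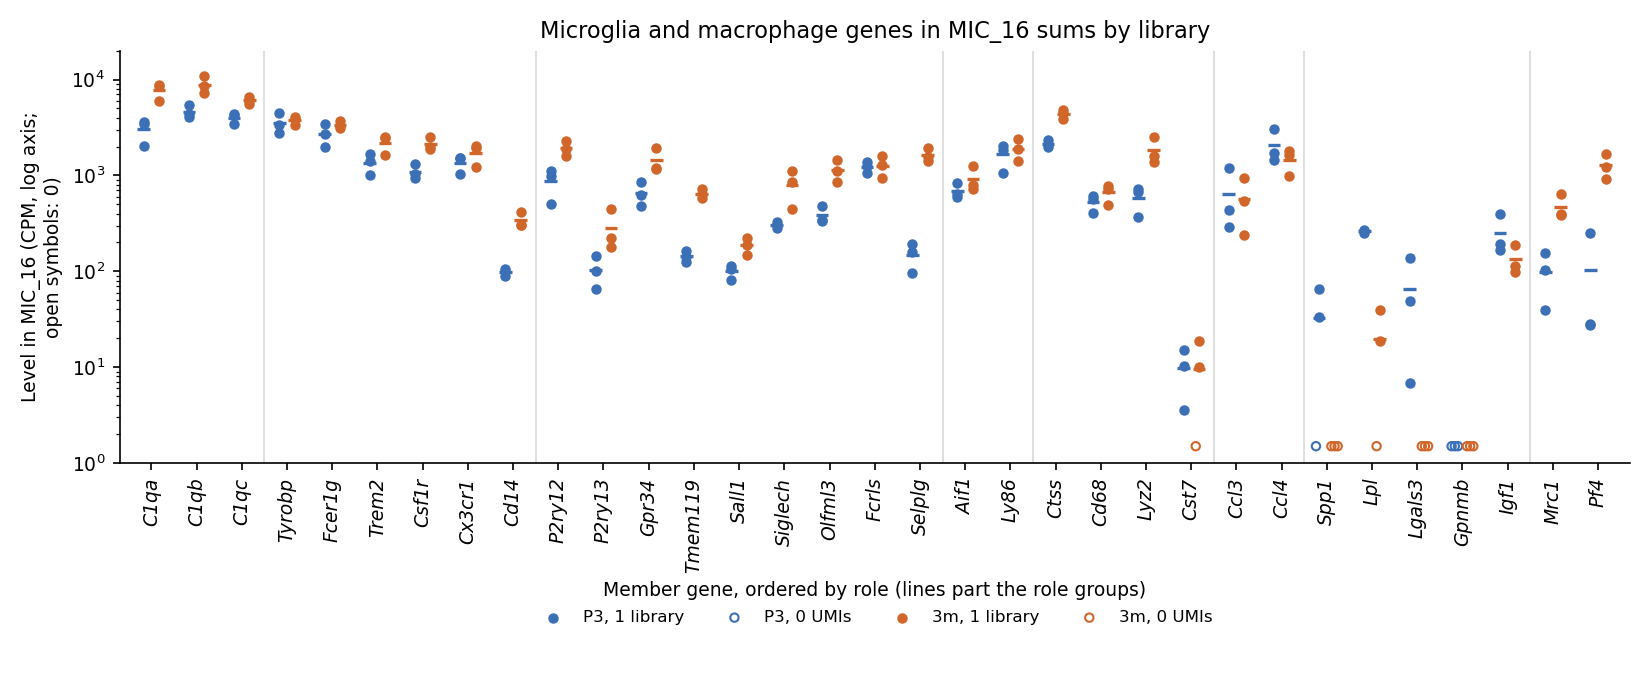
Level of each of the 33 members in MIC_16 (CPM, log axis) in the 3 P3 libraries (blue) and the 3 3m libraries (orange), with dashes at the means and open symbols at the foot for libraries with 0 UMIs. *Selplg* and *Tmem119* are separated between the ages by wide gaps (for *Selplg*, 96.7 to 192 CPM at P3 and 1432 to 1948 CPM at 3m), *Tyrobp* and *Fcrls* overlap, and *Lpl* is the tested member whose 3m libraries all lie below P3.

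Of the 3 complement C1q genes, 2 rose. *C1qa*, *C1qb* and *C1qc* lie side by side on chromosome 4 (GRCm38, *C1qa* at 136895917 to 136898803, minus strand) and encode the chains of C1q, the recognition molecule of the classical complement pathway, which tags synapses and debris. *C1qa* was at 3617, 3479 and 2019 CPM in P3 replicates 1 to 3 and at 8858, 5926 and 8559 CPM at 3m. Every 3m library was above every P3 library. *C1qa* rose with a log2(fold change) of 1.46 ± 0.28 (SE), or 2.75-fold (adjusted p = 0.00321, edgeR). Its call was lost without 3m replicate 1, where the log2(fold change) was 1.28 (adjusted p = 0.0621, edgeR). *C1qb* rose by 1.04 ± 0.25 (adjusted p = 0.0139, edgeR), from 4091 to 5441 CPM at P3 to 7236 to 10788 CPM at 3m. That value is at the edge of the rule, and the call was lost under 9 of the alternatives run, library totals among them (0.92). *C1qc* gave 0.71 ± 0.23 (adjusted p = 0.0589, edgeR) and was not called, although its libraries did not overlap either.

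Of the 9 homeostatic microglial genes, 7 rose, *Sall1* and *Fcrls* were not called, all 9 had a positive log2(fold change), and the median was 1.50. *Selplg*, which encodes the selectin ligand PSGL-1, was at 192, 158 and 96.7 CPM at P3 and at 1432, 1549 and 1948 CPM at 3m. The libraries of the ages were far apart. It rose 11.8-fold, with a log2(fold change) of 3.56 ± 0.28 (adjusted p = 3.92e-06, edgeR), which was the largest among members other than *Pf4*. Its 3m UMIs came from 13 of 20, 19 of 23 and 15 of 17 cells.

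*Tmem119*, a transmembrane protein used to tell microglia from other macrophages, was at 142, 164 and 124 CPM at P3 and at 583, 725 and 637 CPM at 3m. It rose 4.87-fold, with a log2(fold change) of 2.28 ± 0.25 (adjusted p = 4.19e-05, edgeR). *Tmem119* and *Selplg* are close neighbours on chromosome 5 (113793729 to 113800516 and 113818536 to 113832644, both minus strand). *Olfml3*, which encodes a secreted olfactomedin-like protein, was at 338, 483 and 345 CPM at P3 and at 1116, 864 and 1461 CPM at 3m. It rose by 1.65 ± 0.26 on the log2 scale (adjusted p = 0.000683, edgeR).

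*Siglech*, a sialic acid-binding lectin, was even at P3 (285, 307 and 324 CPM) and uneven at 3m (1106, 447 and 862 CPM). It rose by 1.50 ± 0.29 (adjusted p = 0.00292, edgeR), and without 3m replicate 1, its highest library, the value was 1.09 (adjusted p = 0.0653, edgeR). *P2ry12*, the receptor through which microglial processes follow ADP, was at 502, 978 and 1125 CPM at P3 and at 1590, 1876 and 2285 CPM at 3m. It rose by 1.25 ± 0.28 (adjusted p = 0.00926, edgeR). Leaving out any 3m library gave adjusted p-values of 0.0532, 0.0788 and 0.0817 for replicates 1, 2 and 3 (edgeR), and leaving out P3 replicate 1, the lowest, gave a log2(fold change) of 0.97. *P2ry12* and *P2ry13* lie inside *Med12l* on the opposite strand, and whether counting used strand was not given in the sources used here. *Med12l* itself had 0, 3 and 0 UMIs in the MIC_16 cells of 3m.

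*P2ry13* was at 99.7, 146 and 65.6 CPM at P3 and at 444, 179 and 225 CPM at 3m. It rose by 1.57 ± 0.37 (adjusted p = 0.0128, edgeR), and by 0.96 without 3m replicate 1 (adjusted p = 0.242, edgeR), which was no longer called. *Gpr34*, a receptor for lysophosphatidylserine, rose by 1.22 ± 0.27 (adjusted p = 0.00915, edgeR), from 484, 862 and 625 CPM to 1175, 1201 and 1929 CPM. Its call too was lost without any 1 of the 3m libraries (adjusted p = 0.0509, 0.0548 and 0.0972, edgeR). *Sall1*, a transcription factor of microglial identity, passed the adjusted p (0.0457, edgeR) but not the size of change, with 81.9 to 112 CPM at P3, 148 to 225 CPM at 3m and a log2(fold change) of 0.97 ± 0.29. *Fcrls*, an Fc receptor-like protein, was at 1065 to 1397 CPM at P3 and 943 to 1580 CPM at 3m (0.14 ± 0.24).

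**Figure D2:**
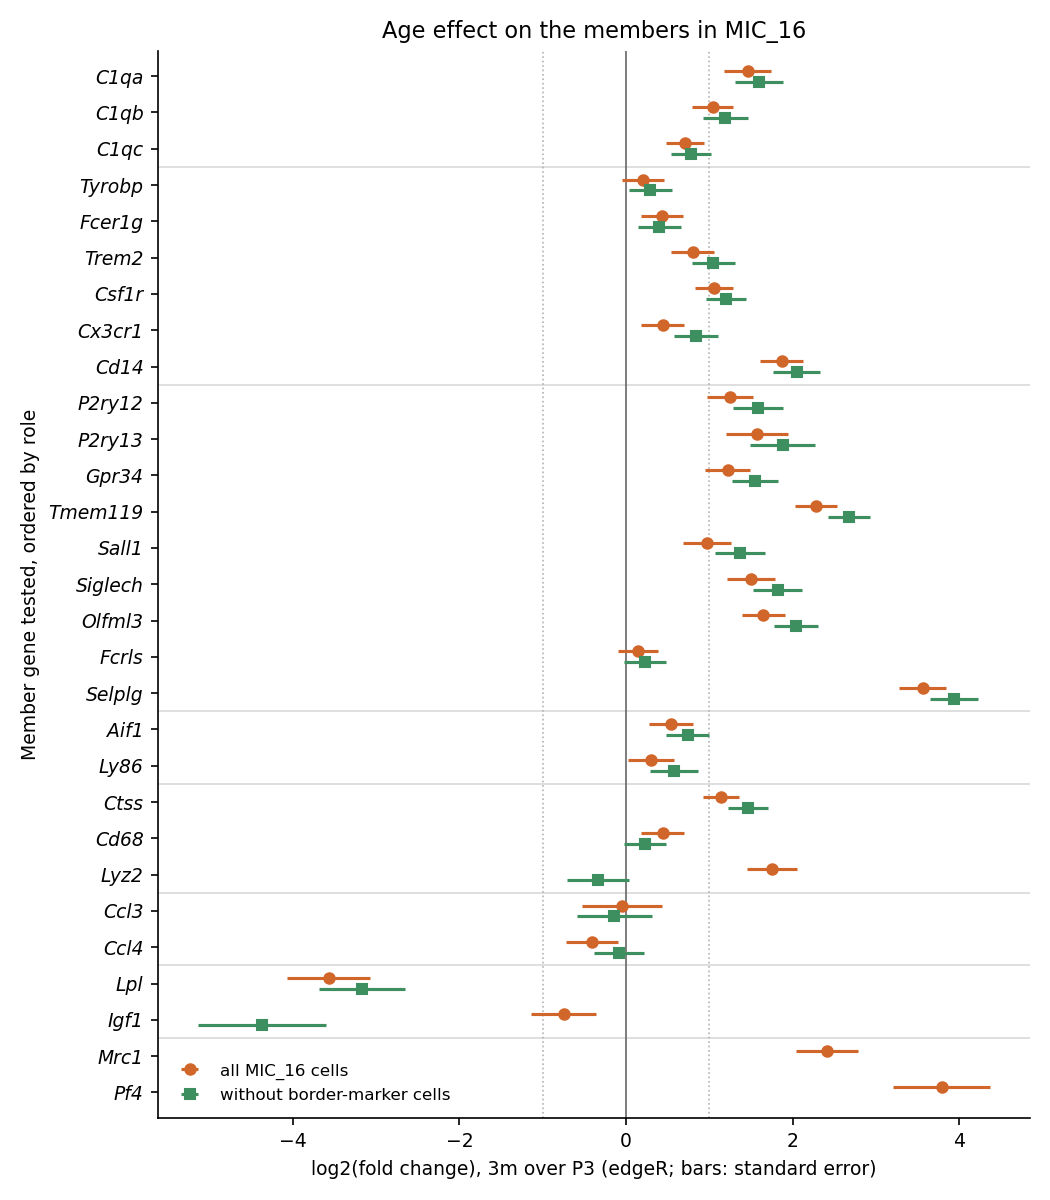
Log2(fold change), 3m over P3, of the 29 tested members (points) with standard errors (bars), from the sums of all MIC_16 cells (orange circles) and from sums without the cells that carried border macrophage markers (green squares); dotted lines mark a change of 1. The homeostatic genes lie to the right in both, *Lyz2* moves from 1.75 to -0.34, *Igf1* from -0.75 to -4.37, and *Mrc1* and *Pf4* have no value without those cells.

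Of the 6 receptors and signalling adaptors, 2 rose and 4 were not called. *Cd14*, a co-receptor for bacterial lipopolysaccharide, was at 99.7, 106 and 89.7 CPM at P3 and at 306, 308 and 412 CPM at 3m. It rose 3.66-fold, with a log2(fold change) of 1.87 ± 0.26 (adjusted p = 0.00029, edgeR), and its libraries were tight within each age. *Csf1r*, the receptor on which microglial survival depends, rose by 1.06 ± 0.23 (adjusted p = 0.00691, edgeR), from 951, 1302 and 1042 CPM to 1906, 1995 and 2510 CPM. Like *C1qb* it was at the edge of the rule, and it was not called under 9 alternatives, with 0.95 under library totals. *Trem2*, a lipid-sensing receptor, gave 0.80 ± 0.26 (adjusted p = 0.0556, edgeR). *Tyrobp*, the DAP12 adaptor of TREM2, gave 0.20 ± 0.25, and *Fcer1g*, the Fc receptor gamma chain, gave 0.43 ± 0.25. *Cx3cr1*, the fractalkine receptor, was at 1029 to 1533 CPM at P3 and 1221 to 2023 CPM at 3m (0.44 ± 0.26). The adaptors and *Cx3cr1* overlapped between the ages.

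The general myeloid genes *Aif1*, which encodes IBA1, and *Ly86*, which encodes MD-1, gave 0.54 ± 0.26 and 0.30 ± 0.28. Both overlapped between the ages, and neither passed an unadjusted p of 0.05 in edgeR or was called by DESeq2. Of the lysosomal and phagocytic genes, *Ctss* rose by 1.14 ± 0.22 (adjusted p = 0.00295, edgeR), from 2343, 1979 and 2140 CPM to 4780, 3901 and 4476 CPM. Without 3m replicate 1 the value was 1.01 (adjusted p = 0.0653, edgeR). *Cd68*, a glycoprotein of late endosomes, was at 407 to 604 CPM at P3 and 486 to 780 CPM at 3m (0.44 ± 0.26). *Cst7*, the protease inhibitor cystatin F, had 9 UMIs over the P3 libraries and 2 over 3m, a ratio of P3 to 3m of 1.28 with a 95% counting interval from 0.264 to 12.1.

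*Lyz2*, the myeloid lysozyme, was at 673, 723 and 366 CPM at P3 and at 2508, 1598 and 1386 CPM at 3m. It rose by 1.75 ± 0.30 (adjusted p = 0.00136, edgeR) in the sums of all MIC_16 cells. That rise lay in the cells with border macrophage markers described further on, and without them the log2(fold change) was -0.34 ± 0.37 (adjusted p = 0.599, edgeR). *Lyz1* is a close paralogue, and how the counting treated reads that fit both was not given, so *Lyz2* is uncertain.

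The chemokines *Ccl3* and *Ccl4*, which attract monocytes and T cells and are induced quickly in disturbed microglia, were not called. *Ccl3* was at 1196, 440 and 290 CPM at P3 and at 938, 238 and 543 CPM at 3m (-0.05 ± 0.48), and *Ccl4* at 3080, 1715 and 1453 CPM and at 978, 1618 and 1779 CPM (-0.41 ± 0.31). Neither passed an unadjusted p of 0.05 in edgeR or was called by DESeq2. Both were concentrated in few cells. At 3m, 1 cell carried 42.1, 70.8 and 51.7% of the *Ccl3* UMIs of replicates 1, 2 and 3, and at P3 the top cell carried 21.4 to 28.0%.

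Of the 5 genes tied to growth factors, lipid handling and early postnatal activation, 2 were tested and 1 fell. *Lpl*, lipoprotein lipase, was at 249, 261 and 273 CPM at P3 and at 0, 39.7 and 18.7 CPM at 3m. It fell by 3.57 ± 0.50 on the log2 scale (adjusted p = 0.000312, edgeR). The direction of this call was set by the filter on low counts, which *Lpl* passed only through P3. It had UMIs in 16 of 34, 25 of 44 and 24 of 46 cells at P3 and in 0, 1 and 1 cells at 3m, with 5 UMIs in all. *Lgals3*, the lectin galectin-3, was too low to be tested, with 39, 16 and 2 UMIs at P3 (139, 48.6 and 6.90 CPM) and 0 in all 3m libraries. Set against a floor of 3 UMIs over the 3m group, its level was at least 5.39-fold lower at 3m, for counting error only. Its P3 UMIs lay in 6, 5 and 2 cells. *Spp1*, osteopontin, had 0, 11 and 19 UMIs at P3, all 11 of replicate 2 in 1 cell, and 0 at 3m, which makes it at least 2.84-fold lower by the same floor, although P3 replicate 1 was at 0 as well. *Gpnmb*, a glycoprotein of lipid-laden phagocytes, had 0 UMIs in MIC_16 in every library, which allows up to 3.33 CPM at P3 and 11.7 CPM at 3m. *Igf1*, insulin-like growth factor 1, was at 392, 191 and 166 CPM at P3 and at 188, 99.3 and 112 CPM at 3m (-0.75 ± 0.39, adjusted p = 0.237, edgeR) and was not called in these sums.

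Both border macrophage genes rose, and both passed the filter on low counts through 3m, where they are high. *Mrc1* was at 103, 39.5 and 155 CPM at P3 and at 642, 387 and 393 CPM at 3m, and it rose by 2.41 ± 0.37 (adjusted p = 0.000683, edgeR). *Pf4* was at 28.5, 27.3 and 252 CPM at P3 and at 1689, 1221 and 918 CPM at 3m, and it rose by 3.79 ± 0.58 (adjusted p = 0.000557, edgeR). Of the 73 *Pf4* UMIs in P3 replicate 3, 72 were in 1 cell. At 3m *Mrc1* was found in only 5, 5 and 4 cells of replicates 1, 2 and 3.

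Cells with border macrophage markers were therefore counted. To be counted, a MIC_16 cell needed UMIs of 2 or more among the 6 genes *Cd163*, *Ms4a7*, *F13a1*, *Cbr2*, *Lyve1* and *Clec12a*, none of which is a member. There were 5 of 20, 5 of 23 and 4 of 17 such cells at 3m (23.4 ± 1.63%) and 0 of 34, 1 of 44 and 1 of 46 at P3 (1.48 ± 1.28%). All 3m shares were above all P3 shares (p = 0.1 by exact permutation, two-sided and the smallest possible). With at least 1 of the 6 genes the shares were 25.1 ± 4.35% and 6.44 ± 2.42%, and with at least 3 they were 21.5 ± 3.68% and 0.725 ± 1.26%. A share of cells and a level per cell are both read from captured cells, so a change in which macrophages came through the enrichment and a change in the tissue cannot be told apart here.

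At 3m these 14 cells held 24.5% of the MIC_16 UMIs, and the members divided between them and the other 46 cells. *Mrc1* had all of its 125 UMIs in the 14 cells. They also held 94.2% of the *Pf4*, 94.3% of the *Igf1* and 82.4% of the *Lyz2* UMIs. *Lyz2* was at 7950, 5608 and 5113 CPM in them and at 710, 290 and 245 CPM in the other cells of the same libraries. *Igf1* was at 676, 403 and 479 CPM against 26.3, 0 and 0 CPM.

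The homeostatic genes other than *Fcrls* lay on the other side. *Fcrls* was at 1670, 847 and 559 CPM in the 14 cells and at 1550, 974 and 1492 CPM in the others. The 14 cells held 21.7% of its 3m UMIs. *Tmem119* and *Sall1* had 0 UMIs in the 14 cells, *Olfml3* had 1, and *Selplg* had 2.22% of its 3m UMIs there. *Cx3cr1* was at 199, 0 and 79.9 CPM in them and at 2536, 1619 and 2618 CPM in the others, and *Ctss* at 1232, 968 and 1198 CPM against 5952, 4858 and 5480 CPM. *C1qc*, *Fcer1g* and *Tyrobp* were at similar levels in both, with *Tyrobp* at 2624 to 3835 CPM in the 14 cells and 3600 to 4384 CPM in the others. These are descriptions of cells split by marker genes, with no test.

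**Figure D3:**
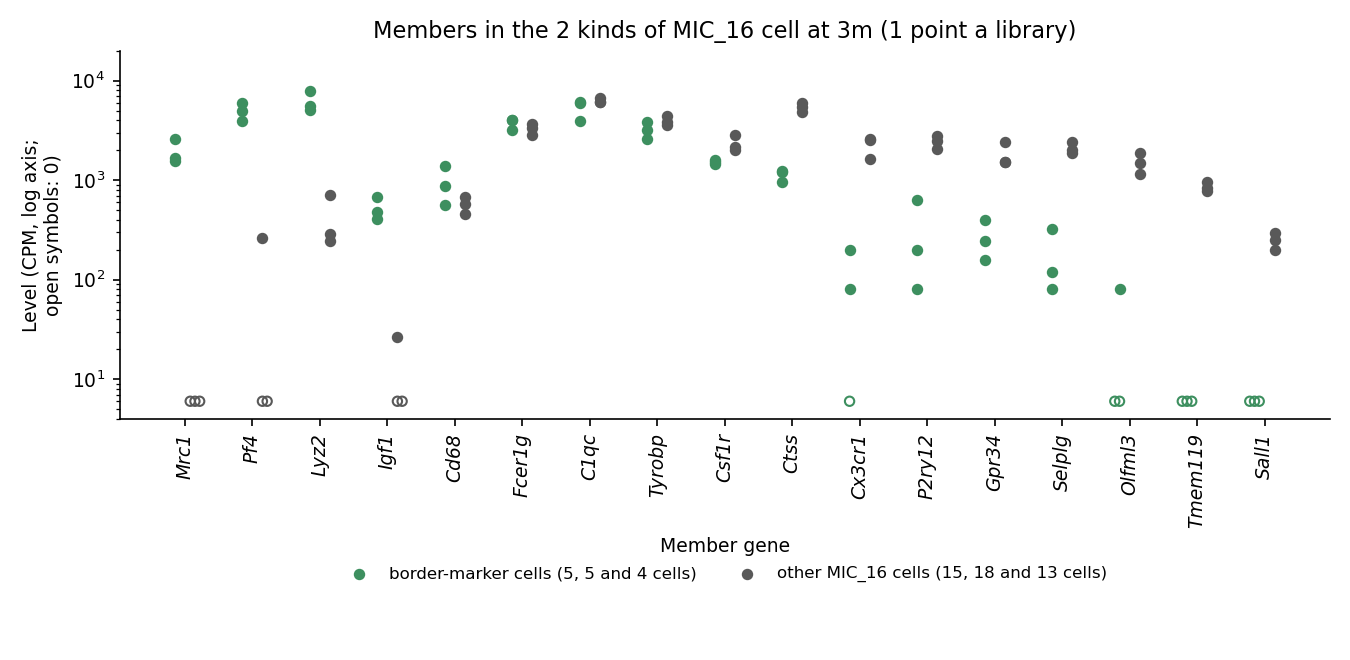
Level of 17 members (CPM, log axis) at 3m in MIC_16 cells with border macrophage markers (green; 5, 5 and 4 cells) and in the other MIC_16 cells (grey; 15, 18 and 13 cells), with 1 point for each library and open symbols at the foot for 0. *Mrc1*, *Pf4*, *Lyz2* and *Igf1* are higher in the green points of every library, *Ctss* to *Sall1* are higher in the grey ones, and *Fcer1g*, *C1qc* and *Tyrobp* lie close together.

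With the cells that carried border macrophage markers left out of all libraries, 27 members were tested. Of these 14 rose, against 7.27% of all 2379 genes tested, and 2 fell, against 4.50%. The 2 that fell, *Lpl* and *Igf1*, passed the filter on low counts only through P3, so their direction was set by the filter. The homeostatic genes had a median log2(fold change) of 1.82, with 8 of 9 called. *Selplg* gave 3.94 ± 0.29, *Tmem119* 2.68 ± 0.25 and *Olfml3* 2.04 ± 0.26. *Sall1* (1.37 ± 0.30, adjusted p = 0.0069, edgeR) and *Trem2* (1.05 ± 0.26, adjusted p = 0.0141, edgeR) rose in these sums. *Lpl* fell by 3.17 ± 0.52 (adjusted p = 0.00108, edgeR).

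*Igf1* fell by 4.37 ± 0.77 on the log2 scale (adjusted p = 0.00178, edgeR) once these cells were left out, from 392, 191 and 167 CPM at P3 to 26.3, 0 and 0 CPM at 3m. In those sums it passed the filter on low counts only through P3, so its direction was set by the filter. *Igf1* UMIs had been present in 14 of 34, 19 of 44 and 17 of 46 MIC_16 cells at P3, so they were not a matter of 1 cell. *Mrc1* was at 0 in all 3m libraries without these cells and at 103, 40.1 and 92.8 CPM at P3, and was too low to be tested. *Apoe*, which encodes the lipid carrier apolipoprotein E, is not a member but showed the same split. It was at 14829, 8987 and 9268 CPM at P3 and at 15069, 9242 and 11631 CPM at 3m in all cells (0.23 ± 0.28, adjusted p = 0.649, edgeR), and fell by 2.96 on the log2 scale (adjusted p = 0.000333, edgeR) without the border-marker cells, which held 91.6% of its 3m UMIs. Astroglial cells express *Apoe* as well, and its part from other cells was not tested.

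Related genes outside the 33 were read from lists chosen by role. Of 20 other homeostatic microglial genes, 18 were tested, 5 rose and 1 fell. *Slc2a5* (1.91 on the log2 scale) and *Tgfbr1* (1.51) were among those that rose, and *Crybb1*, a crystallin of early postnatal microglia, fell by 1.36 (adjusted p = 0.019, edgeR). *Slc2a5* passed the filter on low counts only through 3m, so its direction was set by the filter. Without the border-marker cells 11 of the 18 rose and *Crybb1*, at -0.97, was not called. The *Crybb1* call was also lost without P3 replicate 3 or any 1 of the 3m libraries, and that of *Slc2a5* without 3m replicate 2 (1.76, adjusted p = 0.058, edgeR). Of 10 myeloid transcription factors, 9 were tested and 2 rose. *Bhlhe41*, a basic helix-loop-helix factor, was among them, with a log2(fold change) of 1.33 ± 0.38 (adjusted p = 0.035, edgeR), but its call was lost in DESeq2 (adjusted p = 0.114), under library totals and without any 1 library.

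Of 18 other genes of activated or proliferative-region microglia, 11 were tested and 2 fell. *Fabp5*, a fatty acid-binding protein, was at 954, 398 and 449 CPM at P3 and at 98.8, 39.7 and 18.7 CPM at 3m, and it fell by 3.24 ± 0.48 (adjusted p = 0.000463, edgeR). *Vim*, the intermediate filament vimentin, fell by 2.45 ± 0.70 (adjusted p = 0.0341, edgeR). Both genes passed the filter on low counts only through P3, where they are high, so their direction was set by the filter. *Fabp5* and *Vim* are also expressed by astroglia, whose markers were higher in MIC_16 at P3, and the part of astroglial RNA in their fall was not tested. Of 12 other lysosome genes, all tested, edgeR called 0 and DESeq2 0, with 5 at an unadjusted p under 0.05. Of 13 other cytokines and chemokines, 10 were tested, *Cxcl16* rose by 2.43 and *Ccl6* fell by 1.18 (adjusted p = 0.0397, edgeR). *Cxcl16* passed the filter on low counts only through 3m, so its direction was set by the filter. The *Ccl6* call was lost in DESeq2 (adjusted p = 0.0834), without the border-marker cells (-1.07, adjusted p = 0.0956, edgeR), under the stricter cell filter and without any 1 library other than P3 replicate 1. The *Cxcl16* call was lost without P3 replicate 3, 3m replicate 1 or 3m replicate 3, and that of *Vim* without any 1 of the 3m libraries. Of 6 other complement genes, 4 were tested and 2 rose. *C4b*, a chain of complement C4, had 3 UMIs at P3 and 45 at 3m, a ratio of 52.9 with a 95% counting interval from 17.0 to 266, with 100% of its 3m UMIs in border-marker cells. It too passed the filter only through 3m, which set its direction.

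All 6 tested genes of 11 other border macrophage genes rose, when 6.68% of all genes tested did. All but *Stab1* passed the filter on low counts only through 3m, where they are high, so their direction was set by the filter. *Clec10a*, a lectin of macrophages and dendritic cells, had 1 UMI at P3 and 39 at 3m, a ratio of 137 with a 95% counting interval from 23.3 to 5570. *Cbr2* had 0 UMIs at P3 and 45 at 3m, at least 52.9-fold higher, and *F13a1* gave 5.01, but these 2 and *Ms4a7* are among the genes that picked out the border-marker cells. *Stab1*, a scavenger receptor, gave 2.25 in all cells and, as the 1 gene of the list tested without the border-marker cells, 0.01 there. Genes of MHC class II were high in some 3m libraries only. *Cd74* was at 210, 267 and 283 CPM at P3 and at 1373, 526 and 18.7 CPM at 3m (1.53 ± 0.57, adjusted p = 0.103, edgeR). Under the stricter cell filter *Cd74* turned to -2.77 (adjusted p = 0.000637, edgeR), and it was called higher without 3m replicate 3 (1.99, adjusted p = 0.00642, edgeR) and without the border-marker cells (1.91, adjusted p = 0.0469, edgeR). *H2-Aa* had 0 UMIs at P3 and was at 326, 89.3 and 0 CPM at 3m, *H2-Eb1* had 0 at P3 and was at 267, 129 and 0 CPM, and *H2-Ab1* was at 3.56 to 9.11 CPM and at 207, 9.93 and 0 CPM. Only 3 of the 193 *Cd74* UMIs of 3m were in border-marker cells, and the rest lay in 8 of the other 46 cells.

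All 5 tested proliferation genes out of 8 fell, when 3.43% of all genes tested did. Those with 0 UMIs at 3m passed the filter on low counts only through P3, so their direction was set by the filter. *Top2a*, *Cdk1* and *Ube2c* had 103, 107 and 102 UMIs at P3 and 0 at 3m, which makes them at least 9.74, 10.1 and 9.65-fold lower against the floor of 3 UMIs. Cells with a UMI in at least 2 of *Mki67*, *Top2a* and *Cdk1* were 3, 4 and 8 of the P3 MIC_16 cells and 0 of 60 at 3m. Without them 13 members were called higher, *C1qb* (0.94) and *Csf1r* (0.96) being the losses. Of 6 monocyte and neutrophil genes none was high enough to be tested. *Ly6c2* was at 0 throughout, *Ccr2* had 2 UMIs at P3 and 0 at 3m, and *S100a9* had all of its 77 UMIs in P3 replicate 3.

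Immediate early and dissociation genes, which respond to the warm enzymatic preparation of cells, also differed between the ages. All 13 were tested, 4 rose and 2 fell. *Hspa1a* rose from 39.2, 15.2 and 6.90 CPM to 800, 248 and 468 CPM (4.72 ± 0.49) and *Hspa1b* by 6.15 ± 0.68, and *Fosb* (1.62) and *Dusp1* (1.32) rose as well. Both *Hspa1a* and *Hspa1b* passed the filter on low counts only through 3m, so their direction was set by the filter. *Egr1* fell by 1.04 and *Ier2* by 1.06. Without 3m replicate 1 or 2 the calls of *Fosb*, *Egr1* and *Ier2* were lost, and that of *Ier2* also without P3 replicate 2 or 3 or 3m replicate 3. Without the border-marker cells *Egr1* (-0.77) and *Ier2* (-0.91) were not called. *Jun* gave 0.71, *Fos* 0.63, *Jund* 0.54, *Btg2* 0.30, *Zfp36* 0.04, *Atf3* 0.01 and *Junb* -0.24, none of them called. Their part in the changes of the members was not tested.

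In the other cell types most members were near 0, and their UMIs lay mainly in MIC_16. At P3 at least 97.8% of the annotated UMIs of 18 of the 33 members were in MIC_16 cells. *Gpnmb*, *Sall1*, *Lgals3*, *Spp1*, *Lpl*, *Olfml3*, *Cd14*, *Igf1* and *Pf4* were the members with less than 60% there at P3. The C1q genes together stood at most at 0.0102% of their MIC_16 level in astroglia of the P3 libraries, and at 0.0442, 0.284 and 0.0052% in the 3m replicates 1, 2 and 3.

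**Figure D4:**
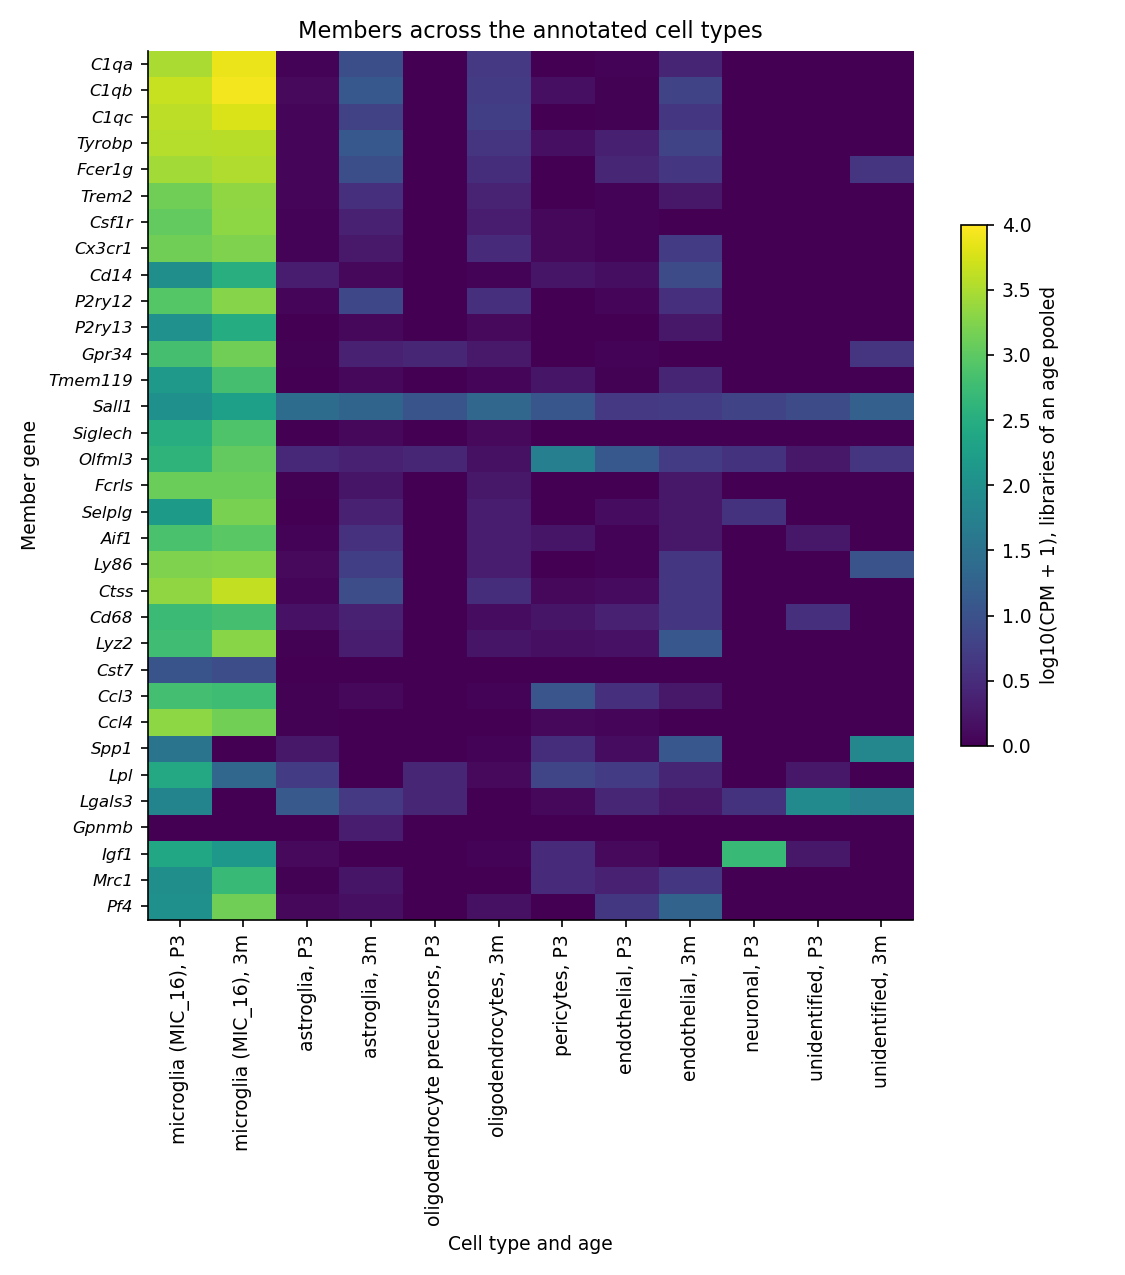
Level of the 33 members as log10(CPM + 1) in each annotated cell type at P3 and 3m, with the libraries of an age pooled. The MIC_16 columns hold the high values of nearly all members, *Sall1* is at 3.56 to 24.6 CPM in every other column, and *Igf1* stands out in neuronal cells at P3.

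Several members were also found outside MIC_16, in more than 1 cell type. *Sall1* was at 28.4, 21.0 and 25.6 CPM in P3 astroglia and at 18.1, 22.8 and 13.6 CPM in 3m astroglia (log2(fold change) -0.25 ± 0.22, adjusted p = 0.369, edgeR), and only 4.27% of its P3 UMIs were in MIC_16. It was also at 19.8 CPM in 3m oligodendrocytes and 10.8 CPM in P3 pericytes. *Olfml3* was at 52.1, 52.7 and 51.0 CPM in the pericytes of the P3 libraries and at 178, 829 and 304 CPM in those of 3m, which rest on 4, 8 and 5 UMIs in 6, 4 and 6 cells. In P3 endothelial cells it was at 11.5 CPM over the 3 libraries. *Lpl* was at 18.0, 11.8 and 19.3 CPM in the P3 cells of GPC_8, an astroglial cluster, where 117 of 574 cells had a UMI. *Lgals3* was at 186, 132 and 125 CPM in the P3 cells of AST_P3_19, an astroglial cluster of 96 cells at P3, and in LOW_23, a small cluster without a named type, it was at 147 CPM in P3 replicate 2 (27 cells) and 102 CPM in 3m replicate 2 (14 cells). *Spp1*, at 0 in MIC_16 at 3m, was at 135, 177 and 145 CPM in the 3m cells of LOW_21, another cluster without a named type. *Igf1* reached 746 CPM in the neuronal cluster of P3 replicate 2, where 6 of 23 cells held all 180 UMIs, and was at 0 in that cluster in the other P3 libraries.

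In astroglia, 8 members were high enough to be tested, 3 rose and 1 fell, when 32.1% of all 13530 genes tested were called, 15.8% higher and 16.3% lower. *C1qc*, *Fcer1g* and *P2ry12*, which rose, passed the filter on low counts only through 3m, where they are high. *Lpl*, which fell, passed it only through P3. The directions of these calls were thus set by the filter. Different clusters made up astroglia at the 2 ages, since AST_3m_5 and AST_3m_14 held 70.9 and 28.4% of the 3m cells and 0.2 and 0% of the P3 cells, so age and cluster cannot be told apart there. *C1qc* gave 4.99 ± 0.80 and *Fcer1g* 5.53 ± 0.87, from levels under 0.42 CPM at P3, and both were highest in 3m replicate 2. *C1qc* was at 2.59, 9.76 and 1.36 CPM in 3m replicates 1, 2 and 3, and *Fcer1g* at 1.73, 17.9 and 1.36 CPM. Without 3m replicate 2 the values were 3.57 (adjusted p = 0.0281, edgeR), still called, and 3.15 (adjusted p = 0.0568, edgeR), no longer called. Of the 98 C1q UMIs in the astroglia of 3m replicate 2, 97 lay in the cluster AST_3m_14, in 28 of its 252 cells (116.2 CPM). The same cluster had 12 C1q UMIs in 3 of 19 cells of 3m replicate 1 (175.8 CPM, with 10 of the 12 in 1 cell) and 2 in 1 of 47 cells of 3m replicate 3 (9.6 CPM). *Lpl* had 323 UMIs in P3 astroglia and 0 at 3m, at least 6.21-fold lower against a floor of 3 UMIs. Of these 323, 161 were in GPC_8 and 73 in GPC_9, clusters without a 3m cell.

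*P2ry12* rose in astroglia as well and did not follow the C1q genes. It was at 0.13, 0.16 and 0.08 CPM at P3 and at 6.91, 6.51 and 6.11 CPM at 3m (5.74 ± 0.49, adjusted p = 9.69e-07, edgeR), nearly the same in the 3 libraries. It was found in 28 of 1118 astroglial cells at 3m (2.50%, 95% Wilson interval 1.74 to 3.60%), which had a median of 3631 UMIs, and in 0.52% of 3m oligodendrocytes, which had 5420. Thinned to 1000 UMIs a cell, the shares were 0.454 and 0.058%. Most of these UMIs, 26, were in the cluster AST_3m_5, with 8, 9 and 9 in replicates 1, 2 and 3, and none of the 25 cells that held them had a C1q UMI. The whole cluster had 0, 1 and 0 C1q UMIs. In MIC_16 of the same libraries the C1q genes had 2377, 1886 and 1383 UMIs and *P2ry12* 161, 189 and 122. The 2 sets of counts were thus in opposite proportion in AST_3m_5 and in MIC_16. *Med12l*, the gene around *P2ry12* on the other strand, had 9, 6 and 11 UMIs in AST_3m_5. The part of *Med12l* reads in this signal was not tested, and the clusters were singled out after their values were seen.

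The ligands of the member receptors were read in astroglia. *Cx3cl1*, the ligand of CX3CR1, rose by 2.15 ± 0.38 (adjusted p = 0.000453, edgeR), from 1.43, 2.71 and 2.16 CPM to 9.50, 7.05 and 8.83 CPM. *Csf1*, a ligand of CSF1R, was at 10.3 to 14.3 CPM at P3 and 8.64 to 16.8 CPM at 3m (0.18 ± 0.26). *Il34*, its other ligand, had 21 UMIs at P3 and 2 at 3m and was not tested.

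The age effect in MIC_16 was set against that in astroglia in 1 fit with an interaction term. Of the members that passed its filter 13 were called lower in MIC_16 and 0 higher, when 7.01% of all 9285 genes were called, 5.15% lower and 1.86% higher. That count is no result about the members, because 10 of the 13 were too low to be tested in astroglia and passed the filter through MIC_16, where they are high. For *Csf1r*, for example, the astroglial side rested on 6 UMIs at P3 and 6 at 3m. The 3 of the 13 that were tested in both kinds of cell were *C1qc* (-4.62 ± 0.63), *Fcer1g* (-5.36 ± 0.61) and *P2ry12* (-4.83 ± 0.53). In astroglia they passed the filter only through 3m, where they are high. *Lpl* (4.20 ± 3.16), *Cd14* (3.38 ± 1.14), *Olfml3* (1.54 ± 0.62) and *Sall1* (0.81 ± 0.40) were also tested in both and were not called. Without 3m replicate 2 *P2ry12* was still called, at -4.86 ± 0.65, and *C1qc* (-3.25, adjusted p = 0.0533, edgeR) and *Fcer1g* (-3.15, adjusted p = 0.102, edgeR) were not. For the 4 members called in astroglia, the separate effects in MIC_16 and astroglia were 0.71 and 4.99 for *C1qc*, 0.43 and 5.53 for *Fcer1g*, 1.25 and 5.74 for *P2ry12*, and a fall for *Lpl* in both.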

How the data were processed

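The authors deposited raw UMI counts per gene and cell from 10x libraries, made with Cell Ranger on mm10, and the cluster name of each cell that had over 500 genes and under 10% mitochondrial UMIs. Clusters came from all 6 libraries together and from all genes, members included. Every annotated cell was kept, doublets were not removed, and no per-sample column was left unmapped. Counts were summed per library and cell type, and the sums of P3 and 3m were compared with edgeR 4.0.16 (R 4.3.3; TMM scaling, filterByExpr, quasi-likelihood test, Benjamini-Hochberg adjustment over all genes tested), with DESeq2 1.42.0 as an alternative. SE is the absolute log2(fold change) over the square root of F. Single values were compared by exact permutation (scipy 1.17.1). A gene low at 1 age could pass the gene filter through the other age alone, and its direction was then set by the filter. CPM use plain totals. Intervals and the floor of 3 UMIs cover counting error only. On simulated counts for MIC_16 with 2709 genes tested, 27.7% of 2-fold and 91.4% of 4-fold changes reached an adjusted p of 0.05 or less. The size of change that a call also needs was not applied there. Alternatives were another scaling and tool, no gene filter, thinning, a stricter cell filter (over 1000 genes, under 5% mitochondrial UMIs), a replicate block and leaving out libraries or kinds of cell. Members and lists were chosen with earlier results of these data known. All 33 members were named, with up to 3 called genes each way per other list, every gene of the ligand, MHC class II and immediate early lists, and *Apoe*, *Stab1*, *Med12l* and the monocyte genes, chosen after their values were seen. Some genes of these lists are not reported here.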

Additional observations from a re-analysis of the deposited data

Results flagged for a closer look

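Of the members tested in both MIC_16 and astroglia, 3 were called in the interaction fit, each with a lower age effect in MIC_16. The differences on the log2 scale were -5.36 for *Fcer1g*, -4.83 for *P2ry12* and -4.62 for *C1qc*. In astroglia these 3 passed the filter on low counts only through 3m, where they are high, so their rise there was set by the filter. Without 3m replicate 2 only *P2ry12* of these 3 was called. *Lpl* (4.20), *Cd14* (3.38), *Olfml3* (1.54) and *Sall1* (0.81), also tested in both, had a higher effect in MIC_16 and were not called.

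Members were also counted in barcodes that the annotation does not hold. Summed over the 33 genes, their level was 388.07 CPM in 772 such barcodes at P3 and 444.09 CPM in 1545 at 3m, against 35184 and 58149 CPM in MIC_16. At 3m 15 of these barcodes had at least 20 UMIs of the C1q genes, and at P3 0 did.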

How the results depend on the processing

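Over the 29 tested members and all alternatives in MIC_16, 471 values kept direction and side of the threshold, 32 lost a call, 5 gained one and 10 changed sign, and the cause was not tested. In MIC_16 the 271 calls became 513 with no gene filter (3 members lower; the median of all genes moved to -0.37), 105 after thinning, and 125 to 255 when 1 library was left out, with 7 to 16 members higher and 1 lower. The stricter cell filter and leaving out border-marker cells each gave 2 members lower. Replicate numbers did not pair the samples (same-numbered correlations 0.16, -0.023 and -0.014), and a replicate block gave 277 calls with 15 members higher and 1 lower. The difference in the share of MIC_16 cells was 0.526 to 0.953 points, and that in border-marker cells 21.15 to 22.78 points, when 1 library was left out.

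In astroglia 2 members were lower under library totals, DESeq2, the block and no filter, no filter called 17 higher, thinning gave 2726 calls with 0 members each way, and the stricter filter 0 members higher. Leaving out 1 library gave 3234 to 4257 calls, with 1 to 9 members higher and 0 to 2 lower. The share of astroglial cells with *P2ry12* was 0.454% after thinning. For the difference of the age effect, 1 member was higher with no library block and 3 under library totals, and leaving out 1 library gave 430 to 651 calls, with 0 to 1 members higher and 1 to 16 lower.

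Larger turns of sign were those of *Cd74*, to -2.77 under the stricter filter (adjusted p = 0.000637, edgeR), and, without border-marker cells, of *Lyz2* to -0.34 and *Apoe* to -2.96 on the log2 scale. With library totals *Atf3* gave -0.11 and *Zfp36* -0.08. With no filter *Tyrobp* gave -0.10, *Fcrls* -0.16, *Ly86* -0.02, *Apoe* -0.05, *Atf3* -0.30 and *Zfp36* -0.27. Under the block *Atf3* gave -0.02. *Ccl3* gave 0.12 after thinning, 0.05 without possible doublets and 0.38 without cycling cells. The stricter filter gave -0.09 for *Apoe* and -0.04 for *Zfp36*. *Atf3* gave -0.07 and *Zfp36* -0.05 without possible doublets, and *Atf3* -0.06 without cycling cells. In astroglia *Csf1* gave -0.02 with library totals, -0.14 after thinning and -0.44 under the stricter filter.

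When 1 library was left out, the MIC_16 values ran from -0.74 to 0.76 for *Ccl3*, -0.13 to 0.23 for *Fcrls*, -0.03 to 0.50 for *Apoe*, -0.32 to 0.08 for *Atf3* and -0.15 to 0.21 for *Zfp36*, for *Cd74* from 0.38 to 1.99 and for *Lyz2* from 1.40 to 1.93. In astroglia they ran from -0.22 to 0.31 for *Csf1* and -2.18 to 0.06 for *Olfml3*. The difference of the age effect ran from -5.31 to 3.81 for *Trem2*, -2.55 to 2.86 for *P2ry13*, -4.47 to 3.13 for *Gpr34*, -1.26 to 3.30 for *Tmem119*, -3.86 to 1.50 for *Siglech*, -4.27 to 2.36 for *Fcrls*, -3.49 to 2.22 for *Ccl3* and -3.42 to 4.12 for *Mrc1*, and each of these 8, none of which could be tested in astroglia, turned sign without 3m replicate 2.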
